A study of Homo sapiens with 14 samples.

Results

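The regions described here are 2619 stretches of chromatin that opened when the fusion protein PAX3-FOXO1 was expressed in LHCN myoblasts. The same regions were also open in RH30 rhabdomyosarcoma cells given DMSO or a control hairpin. They were chosen from ATAC-seq peak lists in 2 steps. First, a region had to hold a peak in both LHCN libraries with PAX3-FOXO1 (P3F1-OE) and in neither library with empty vector, which gave 19093 fusion-gained regions among 234279 LHCN regions. Second, a peak had to overlap it in both RH30 libraries with DMSO and both with the control hairpin (shCtrl), which left 2619 members, or 13.7% of the fusion-gained regions. Peaks in these 6 libraries, and their absence from the 2 vector libraries, therefore chose the members, and the values there are given as description with no test. The 6 RH30 libraries with the KDM4 inhibitor QC6352 or a KDM4B hairpin were not required to hold or lack a peak. The shortest of their lists, of shKDM4B-814 replicate 2, did set how many peaks each RH30 list kept.

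The study measured chromatin accessibility in 14 libraries, 2 in each of 7 groups. LHCN, an immortalised human myoblast line, carried empty vector (Ctrl) or overexpressed PAX3-FOXO1 (P3F1-OE) for 72 h. RH30, a rhabdomyosarcoma line that makes PAX3-FOXO1 from its own translocated chromosome, received 0.1% DMSO or 200 nM QC6352, or was transduced for 72 h with 1 of 3 hairpins, the control (shCtrl) or one of 2 against KDM4B (shKDM4B-813, shKDM4B-814). Each library was made from 100000 cells. Every group of a line thus shares its background, 1 myoblast line and 1 tumour line, so the fusion is present in all RH30 groups, treated or not. The sources used here give neither the promoter that drove the fusion in LHCN nor the level of KDM4B in the hairpin libraries. The labels do not say that replicates were separate cultures, so a p-value speaks only of spread among libraries, and that spread may be technical. In bulk libraries, fewer cells with an open site and less opening per cell cannot be told apart.

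PAX3-FOXO1 joins the DNA-binding part of PAX3, a transcription factor of muscle progenitors, to the activating part of FOXO1. It is known to bind mostly distal enhancers, some of them in chromatin that was closed before, and in rhabdomyosarcoma it sits with MYOD1, MYOG and MYCN in clusters of enhancers that hold the tumour's myogenic programme in place. KDM4B belongs to the KDM4 family of demethylases, which remove methyl groups from lysines of histone H3, and QC6352 inhibits several enzymes of that family.

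ATAC-seq cuts open chromatin with the Tn5 transposase, and a peak marks a stretch cut more often than its surroundings. All lists of a line were cut to an equal number of peaks, 170390 in LHCN and 93488 in RH30, keeping the strongest. A region is called open in a library if one of these peaks overlaps it by 1 bp or more. Its strength is the within-list percentile of its best peak, from 100 for the strongest peak of the list to 0 for no peak. A region counted as lost under a treatment had no peak in either treated list. The deposited RH30 lists held 93488 to 176899 peaks, and the libraries with QC6352 were unequal, at 111272 and 176899. Lists of equal length had unequal limits. The weakest peak kept had −log10 q 2.21 in shKDM4B-814 replicate 2 and 7.49 in QC6352 replicate 2. Read depth is unknown, since the lists do not state it.

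The members were weaker than the regions that all 4 LHCN libraries shared, and they ranked higher in RH30 than in the myoblasts that gained them. Their median percentile was 45.0 and 42.2 in the P3F1-OE libraries, 71.9 and 71.9 with DMSO, and 73.9 and 74.8 with shCtrl. LHCN-shared regions open in the same RH30 controls had medians of 85.4 and 85.6 in the P3F1-OE libraries. The fusion-gained regions that were not members had medians of 31.4 and 28.0 there. The authors' fold value over local background, read within each list, had a median over the members of 7.23 and 8.58 in the P3F1-OE libraries and reached 60.2 and 75.8. LHCN and RH30 lists differ in length, so the step in percentile between the lines shows no change by itself.

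**Figure D1:**
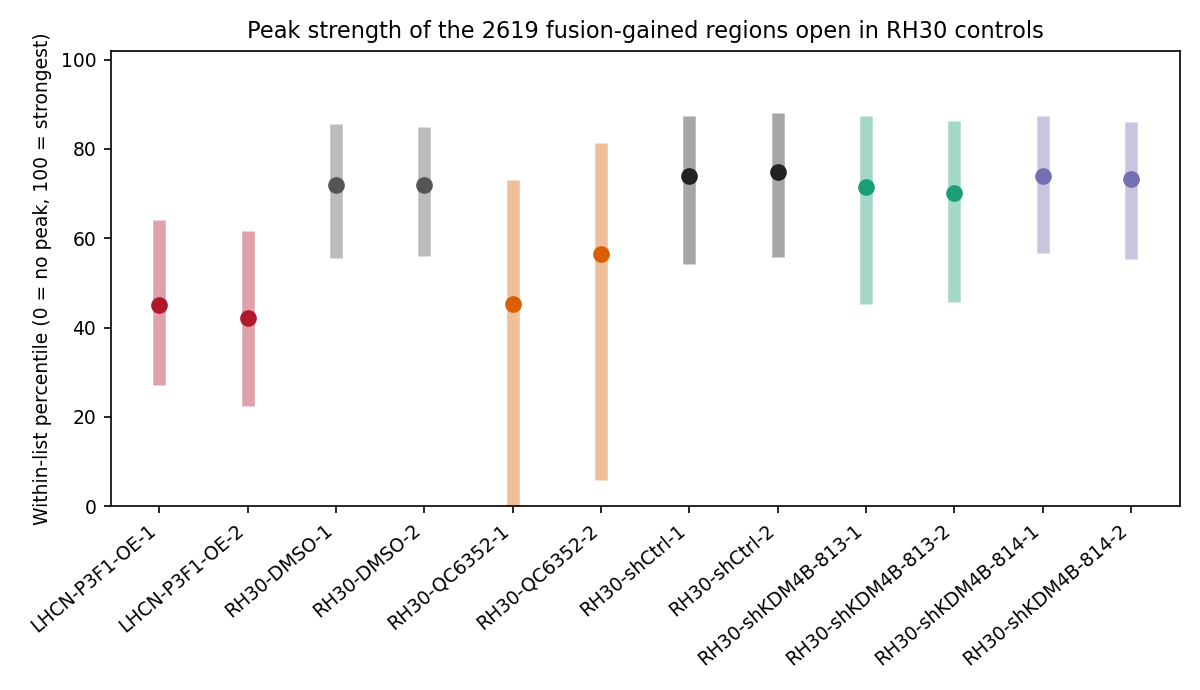
Within-list percentile (0 for no peak, 100 for the strongest peak) of the 2619 members in each library that could hold them; points are medians and bars span the middle 50% of members. The medians lie at 71.9 to 74.8 in the 4 RH30 controls, at 45.2 and 56.5 with QC6352, and at 70.1 to 73.9 with the KDM4B hairpins.

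Most fusion-gained regions had a peak in none of the 4 RH30 control lists. Of the 19093, 12600 had a peak in none of the 4 control lists, 1600 in 1, 1315 in 2, 959 in 3 and 2619 in all 4. Among the 959 that missed a single list, 406 missed shCtrl replicate 1, 320 missed shCtrl replicate 2, 123 missed DMSO replicate 1 and 110 missed DMSO replicate 2. The limit of the lists decided some of these, since 392 regions had a peak in all 4 control lists as deposited and were not members. The members nearest the limit were chr19:19603860-19604202, whose deciding DMSO peak had −log10 q 5.51 and fold 4.65, and chr1:77236598-77237020 and chr1:48260240-48260506, decided by shCtrl peaks of −log10 q 5.39 and fold 4.83. The nearest regions outside were chr1:118840992-118841387, chr1:142638256-142638592 and chr1:154840380-154840661, all decided by shCtrl peaks of the same −log10 q 5.39 and fold 4.83. Over all LHCN regions, 8.15% were fusion-gained and 16.9% were open in the 4 RH30 controls, against 13.7% of the fusion-gained regions. Being closed in RH30 was thus common among LHCN regions of any kind. The counts by number of control lists were not made for all LHCN regions. These shares were all used by the rule.

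The members were narrow regions that RH30 control peaks had to overlap by the rule. Their median width was 363 bp (middle 50%, 292 to 474 bp), against 291 bp for the other fusion-gained regions and 735 bp for LHCN-shared regions open in the RH30 controls. The strongest summits of the 2 P3F1-OE libraries lay a median of 22 bp apart within a member. The P3F1-OE summit lay a median of 28 bp from the DMSO summit and 32 bp from the shCtrl summit. For LHCN-shared regions the same distances were 13, 27 and 33 bp. Within 50 bp of the P3F1-OE summit stood the DMSO summit of 68.6% of members and the shCtrl summit of 65.5%. The distances between the lines were thus similar in members and in shared regions. Overlap was required in both classes, and narrow regions leave less room between summits, so closeness is partly built in. With the RH30 summit required inside the region, 2297 members were left.

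Absence from the vector lists was a matter of rank for some members. In the vector lists as deposited, 135 members (5.15%) had a weaker peak in at least 1 list and 12 in both. Very wide RH30 peaks also let in a few members. For 47, a peak over 5000 bp was the only one in at least 1 RH30 control list, and 2572 members were left when such peaks did not count.

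With QC6352, the members lost their peaks more often than the other LHCN regions open in the same controls. No peak remained in either QC6352 list at 473 of 2619 members, or 18.1% (Wilson 95% interval 16.6 to 19.6, which covers counting error over regions only). Over all LHCN regions open in the 4 controls the share was 5.47%. It was 3.50% for LHCN-shared regions, 6.77% for fusion-lost regions and 13.8% for the remaining LHCN regions. Fusion-lost regions held a peak in both vector lists and in neither P3F1-OE list. They were weak in the vector lists, with median percentiles of 18.5 and 19.9. RH30 regions with no LHCN peak, at 18.6%, were lost about as often as the members. Since the controls had to hold a peak, a count of losses has a built-in excess in every class, and it is read only beside the other classes.

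The QC6352 libraries differed in how far they lost the members. QC6352 replicate 1 had a peak at 69.3% of members and replicate 2 at 76.3%. A single QC6352 list held 480 members, 149 in replicate 1 and 331 in replicate 2, and both held 1666 (63.6%). Resting the count on replicate 1 alone, without QC6352 replicate 2, gave 804 lost members (30.7%). On replicate 2 alone the count was 622 (23.7%).

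Loss from the strongest peaks was not always loss from the deposited list. Of the 473 members, 185 (39.1%) had a weaker peak in at least 1 QC6352 list as deposited: 34 in replicate 1 and 171 in replicate 2, of which 20 in both. Strength in the controls went with the outcome. Members absent from both QC6352 lists had a median percentile of 56.0 with DMSO and 57.8 with shCtrl, against 78.2 and 78.5 for members with a peak in both QC6352 lists. Their medians in the P3F1-OE libraries were closer, at 39.3 and 43.9.

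The members were also divided into 4 equal groups by strength. By their lowest percentile over the 4 RH30 controls, 33.2% of the weakest group were lost with QC6352, then 21.8%, 13.7% and, in the strongest group, 3.51%. By their lower percentile in the P3F1-OE libraries the 4 shares were 17.9%, 21.4%, 19.2% and 13.7%. The shares thus spanned a wider range by strength in RH30 than by strength in LHCN, and this was not tested. Peaks in all 6 treated lists went from 33.5% of the weakest RH30 group to 88.5% of the strongest. Losses with shKDM4B-813 fell too, from 12.1% of the weakest RH30 group to 0.305% of the strongest. Those with shKDM4B-814 fell from 4.43% to 0%. The control lists chose the members, and weak members lie nearer the limit of the lists. A fall with strength, here and in the medians above, may thus be partly built in.

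With absence counted as 0, most members ranked lower with QC6352 than with DMSO. The difference of each member's mean percentile, QC6352 minus DMSO, had a median of −21.0 (middle 50%, −43.9 to −1.90). It lay below −25 for 1191 members (45.5%) and above 25 for 83 (3.17%). Among regions open in the same controls, the median difference was −3.84 for LHCN-shared regions (16.8% below −25), −12.6 for the remaining LHCN regions (35.3%) and −12.7 for RH30 regions with no LHCN peak (33.9%). Both QC6352 libraries were below both DMSO libraries at 59.1% of members, and at 37.1%, 46.4% and 47.2% of these 3 classes in the same order. Every one of these regions had to hold a DMSO peak, so a shift downward is built in for all of them.

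To compare DMSO and QC6352 without a built-in loss, fusion-gained regions were chosen by the shCtrl lists alone, which left the DMSO lists free to vary. This set held 3019 regions. A peak was present at 90.4% and 90.8% of them with DMSO and at 63.9% and 71.8% with QC6352. Both QC6352 libraries were below both DMSO libraries. The means were 90.6% ± 0.304 and 67.9% ± 5.64 (SD, n = 2 each), a difference of −22.8 percentage points (exact permutation test, two-sided, p = 0.33, adjusted p = 0.381 by Benjamini-Hochberg over 8 tests). With 2 libraries against 2, 0.33 is the smallest p possible, so no difference of any size could pass a threshold of 0.05. The median percentile of the same regions was 67.7 and 67.8 with DMSO and 36.4 and 49.7 with QC6352, a difference of −24.7 with the same exact permutation p of 0.33. On the lists as deposited this difference was −16.1 and the libraries overlapped (exact permutation p = 0.667), and at −log10 q of 10 or more it was −38.1.

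LHCN-shared regions chosen in the same way (34878) moved less, from 95.8% and 96.1% with DMSO to 89.8% and 91.0% with QC6352. The share of fusion-gained regions minus that of LHCN-shared regions was −5.41 and −5.28 percentage points in the DMSO libraries and −26.0 and −19.1 in the QC6352 libraries. The gap thus differed by −17.2 points between the treatments, with no overlap between the groups (exact permutation test, two-sided, p = 0.33, the smallest possible, adjusted p = 0.381). In 2 other classes both QC6352 libraries lay above both DMSO libraries. RH30 regions with no LHCN peak (14825) were present at 34.8% and 37.9% with DMSO and at 38.9% and 55.8% with QC6352. The strongest of them went the other way: at a percentile of 75 or more in the shCtrl lists (1052 regions) the shares were 95.1% and 95.4% under DMSO against 85.8% and 87.9% under QC6352. Fusion-lost regions (531) were present at 56.1% and 58.9% with DMSO and at 61.4% and 76.6% with QC6352. The libraries overlapped for the remaining LHCN regions (5847), with DMSO at 69.6% and 73.2% and QC6352 at 58.8% and 72.6%.

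**Figure D2:**
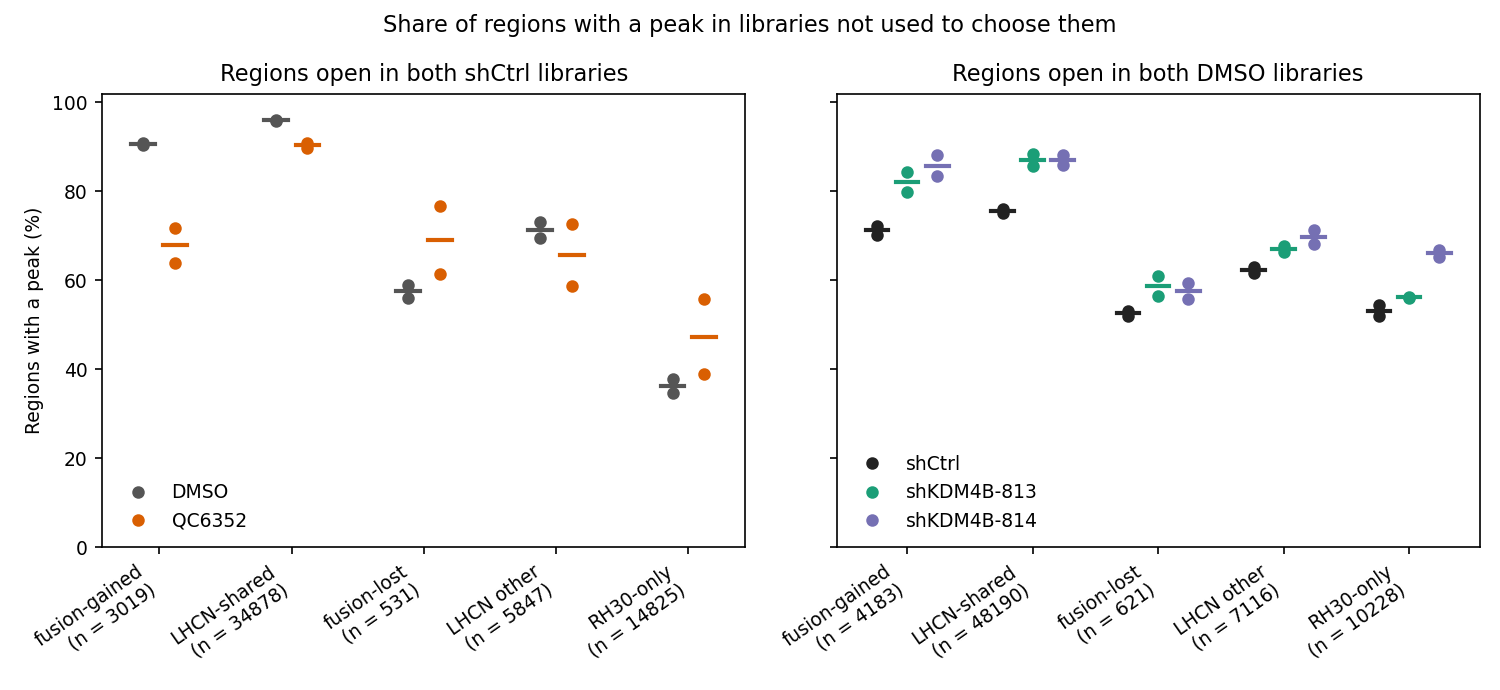
Percent of regions with a peak in each library, for regions chosen by both shCtrl lists (left, DMSO and QC6352) and by both DMSO lists (right, shCtrl and hairpins); points are libraries, lines are group means, and n is the number of regions of each class. Fusion-gained regions sit at 90.4% and 90.8% with DMSO against 63.9% and 71.8% with QC6352, whereas on the right the hairpin libraries lie above shCtrl for them as for LHCN-shared regions.

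The QC6352 libraries were lower at every strength. The 3019 regions were divided by their lower percentile in the shCtrl lists. Under a percentile of 25 (482 regions) the share with a peak went from 74.8% ± 0.440 with DMSO to 46.1% ± 4.69 with QC6352 (SD, n = 2 each). From 25 to 50 (620 regions) it went from 85.2% to 53.4%, from 50 to 75 (888) from 92.8% to 68.9%, and from 75 upward (1029) from 99.4% ± 0.206 to 85.9% ± 4.05. In each of these ranges both QC6352 libraries lay below both DMSO libraries. LHCN-shared regions of the same 4 ranges went from 83.6% to 73.8%, 92.1% to 82.2%, 97.2% to 90.6% and 99.7% to 97.5%. At like strength the difference in means was therefore larger for fusion-gained than for shared regions in each range. Limiting both classes to percentiles of 50 or more gave a difference in the gap of −14.4 points, and limiting them to widths of 250 to 500 bp gave −13.6.

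**Figure D3:**
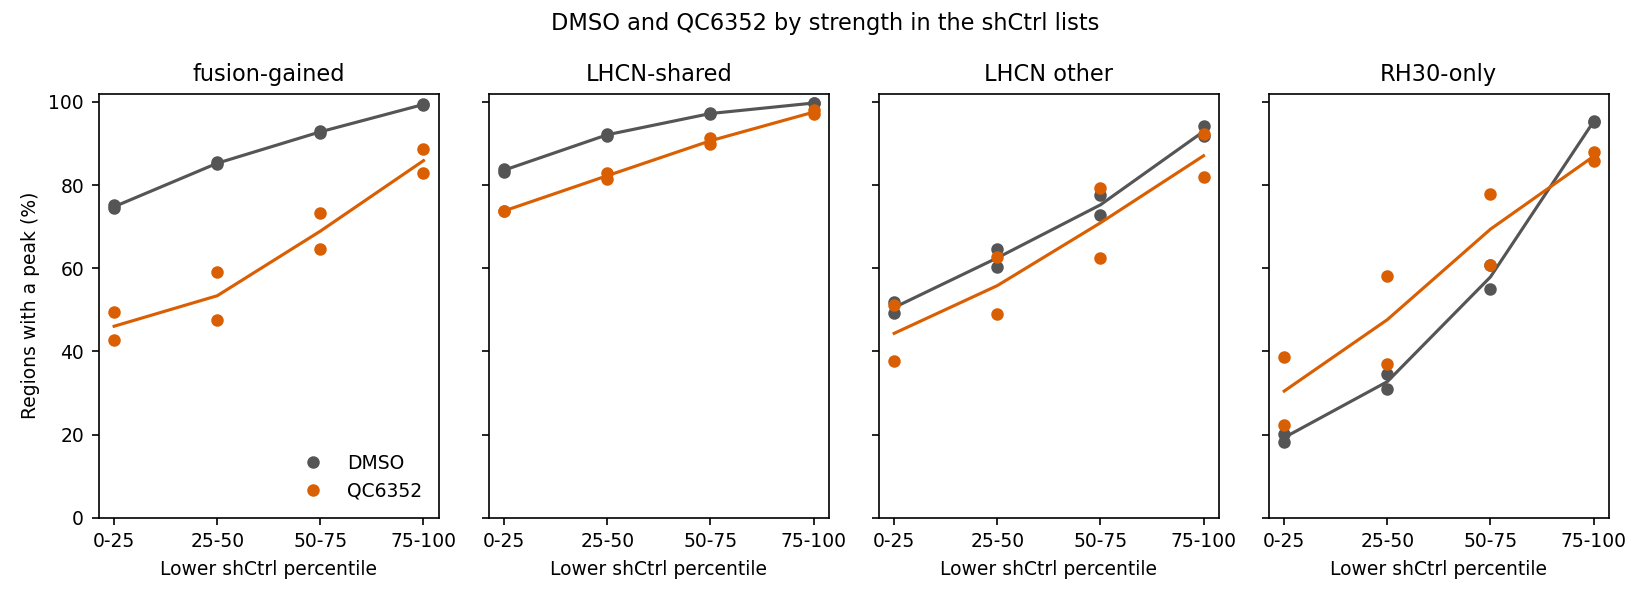
Percent of regions with a peak with DMSO and QC6352, by the region's lower percentile in the 2 shCtrl lists that chose it, for 4 classes of region; points are libraries and lines join group means. In fusion-gained regions the QC6352 line lies below the DMSO line from the weakest range (46.1% against 74.8%) to the strongest (85.9% against 99.4%).

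The KDM4B hairpins left most members in place. With shKDM4B-813, 116 members (4.43%) had no peak in either list, against 3.02% of all LHCN regions open in the 4 controls. With shKDM4B-814 the count was 35 (1.34%), against 1.51% of all. Neither hairpin left a peak at 12 members (0.458%), against 0.632% of all. The shares for shKDM4B-814 and for both hairpins were thus near those of all open regions. These small counts depended on the lists used: without 1 library, which loosens the rule, they ran from 47 to 121 for shKDM4B-814 and from 17 to 37 for both hairpins, and on the lists as deposited 85 members were lost with shKDM4B-814 and 65 with shKDM4B-813. For LHCN-shared regions the shares lost with shKDM4B-813, with shKDM4B-814 and with both were 1.98%, 0.932% and 0.352%. They were higher in the other classes, at 14.0%, 5.87% and 3.49% for RH30 regions with no LHCN peak. The remaining LHCN regions had 10.5%, 6.11% and 3.03%, and fusion-lost regions had 11.7%, 9.77% and 3.01%. Peaks were present at 92.6% and 91.2% of members in the shKDM4B-813 libraries and at 96.6% and 95.4% in the shKDM4B-814 libraries. The median percentile difference from shCtrl was −2.90 for shKDM4B-813 and −0.32 for shKDM4B-814. With shKDM4B-813 the difference lay below −25 for 533 members (20.4%) and above 25 for 240 (9.16%). With shKDM4B-814 these were 242 (9.24%) and 209 (7.98%). Shares below −25 were 11.3% and 5.87% for LHCN-shared regions. In the other classes they were 35.5% to 44.0% with shKDM4B-813 and 24.2% to 32.0% with shKDM4B-814. Every one of these regions had to hold a shCtrl peak, so a shift downward is built in.

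Chosen by the DMSO lists alone, so that shCtrl was free to vary, 4183 fusion-gained regions had more peaks with the hairpins than with shCtrl. A peak was present at 70.3% and 72.3% of them with shCtrl, at 84.3% and 79.8% with shKDM4B-813, and at 88.1% and 83.4% with shKDM4B-814. All 4 hairpin libraries were above both shCtrl libraries, by 12.6 points on average (exact permutation test, two-sided, p = 0.0667, the smallest that 15 label sets allow, adjusted p = 0.381). Each hairpin by itself differed by 10.8 points (shKDM4B-813) and 14.5 points (shKDM4B-814), both with the smallest exact permutation p of 0.33. The hairpins share these shCtrl libraries.

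A difference of the same sign was found outside the fusion-gained regions. LHCN-shared regions chosen by DMSO (48190) went from a mean of 75.6% with shCtrl to 87.1% for shKDM4B-813 and 87.0% for shKDM4B-814. The class gap changed by 1.14 points, and the libraries overlapped (exact permutation test, two-sided, p = 0.6, adjusted p = 0.6). The change turned to −2.13 without P3F1-OE replicate 2 and to −4.02 for widths of 250 to 500 bp. The median percentile of the 4183 regions was 52.2 and 54.0 with shCtrl and 55.7 to 61.8 with the hairpins, a difference of 5.78 (exact permutation test, two-sided, p = 0.133, adjusted p = 0.381), which was −0.996 on the lists as deposited and 16.6 at −log10 q of 10 or more. The deposited shCtrl lists held 219 and 288 peaks over 5000 bp, against 40 to 65 in the hairpin lists. Without such peaks the hairpin difference was 13.2 points.

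Put together, 1568 members (59.9%) had a peak in all 6 treated lists, against 78.4% of all LHCN regions open in the 4 controls. The next most frequent patterns were loss from 1 QC6352 list (374 members) and from both (284 members, 10.8%), each with all 4 hairpin lists occupied. So 60.0% of the 473 members absent with QC6352 had a peak in every hairpin list. The share was 77.9% for members in 1 QC6352 list and 94.1% for members in both. Members absent with QC6352 were thus also more often missing from a hairpin list. They were weaker in the controls too, at a median of 56.0 with DMSO and 57.8 with shCtrl. Members in both QC6352 lists stood at 78.2 and 78.5. Weak members were lost more often with each hairpin as well, and the part of strength here was not tested. Absence from all 4 hairpin lists with a peak in both QC6352 lists was found at 3 members, and absence from all 6 treated lists at 5. Shares of all open regions with these patterns of loss were not computed. No test compared QC6352 with the hairpins, which have different controls.

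The 8 strongest members, ranked by their lowest percentile over the P3F1-OE, DMSO and shCtrl lists, kept a peak in every treated list. No gene is named for a region, since no annotation of hg19, the build of the lists, was used here. The strongest was chr10:112935380-112936245, at 99.0 and 99.1 with P3F1-OE, 99.6 and 99.6 with DMSO, 97.9 and 98.7 with QC6352, 99.1 and 99.5 with shCtrl, 99.4 and 99.5 with shKDM4B-813 and 99.1 and 98.7 with shKDM4B-814. It ranked near the top of all 12 lists. Its fold value, which depends on each library's background, was 62.4 and 55.4 under DMSO and 20.0 and 24.2 under QC6352. Another member on the chromosome, chr10:108850464-108851323, had percentiles of 99.3 and 98.0 under DMSO and of 92.5 and 98.8 under QC6352.

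The third, chrX:1872741-1873590, showed the widest step of the 8. It stood at 97.1 and 96.0 with P3F1-OE, 96.3 and 96.2 with DMSO, 39.7 and 80.9 with QC6352, 96.5 and 97.3 with shCtrl, 99.2 and 99.2 with shKDM4B-813 and 95.1 and 97.0 with shKDM4B-814. Both QC6352 libraries were the lowest of the 10 RH30 libraries, and they differed widely from each other. A like pattern of smaller size was found at chr1:246765422-246765997, with 94.3 and 94.8 under DMSO and 69.1 and 89.8 under QC6352. At chr16:7136750-7137197 DMSO gave 98.1 and 97.9, and QC6352 gave 94.6 and 95.3, and at chr10:134922936-134924092 they were 99.1 and 99.6 against 87.5 and 97.0. The remaining pair, chr2:16386003-16386745 and chr2:16397118-16397577, lay in 1 run of members. They had DMSO percentiles of 99.8 and 99.8, and of 99.7 and 99.5. With QC6352 they stood at 98.0 and 99.7, and at 97.6 and 99.5.

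Among the members absent from both QC6352 lists and present in every hairpin list, the strongest was chr13:33004139-33004637. It stood at 88.2 and 87.5 with P3F1-OE, 85.0 and 90.3 with DMSO, 89.1 and 91.4 with shCtrl, 85.7 and 83.4 with shKDM4B-813, and 79.6 and 87.5 with shKDM4B-814. It was thus among the stronger peaks of every P3F1-OE and RH30 list but those with QC6352. The next was chr9:23728696-23729183, at 86.0 and 76.3 with DMSO, 92.2 and 85.5 with shCtrl and 66.0 to 91.0 with the hairpins. This member had a weaker peak in 1 vector list as deposited. At chr10:29345708-29346257 the percentiles were 80.3 and 74.4 with DMSO, 75.9 and 81.0 with shCtrl, and 80.8 to 91.6 with the hairpins. The fourth, chr10:111672018-111672373, was weaker with shKDM4B-813 (30.7 and 11.7) than with shKDM4B-814 (76.7 and 84.7). All 4 had a weaker peak in 1 QC6352 list as deposited, so none was missing from both.

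The 3 members with the opposite outcome were weak in LHCN. At chr11:47469294-47470024 the percentiles were 4.84 and 15.3 with P3F1-OE, 85.5 and 90.0 with DMSO, 86.3 and 81.3 with QC6352, and 22.8 and 79.5 with shCtrl. The shCtrl libraries differed widely there, and 1 vector list as deposited held a weaker peak. At chr9:131125062-131125277 they were 16.9 and 3.51 with P3F1-OE, 23.3 and 87.6 with DMSO and 28.0 and 87.9 with QC6352, so that replicates with the same treatment were far apart. At chr12:123460219-123460886 they were 12.0 and 0.783 with P3F1-OE, 52.1 and 64.7 under DMSO, and 93.1 and 56.5 under QC6352. The 4 strongest members absent from all 6 treated lists were chr6:149766127-149766553, chr11:63396922-63397186, chr10:52462816-52463073 and chr5:10503467-10503714. Their lowest percentile over the 6 lists that chose them ran from 5.38 to 26.2, and the first 2 had a weaker peak in 1 hairpin list as deposited.

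**Figure D4:**
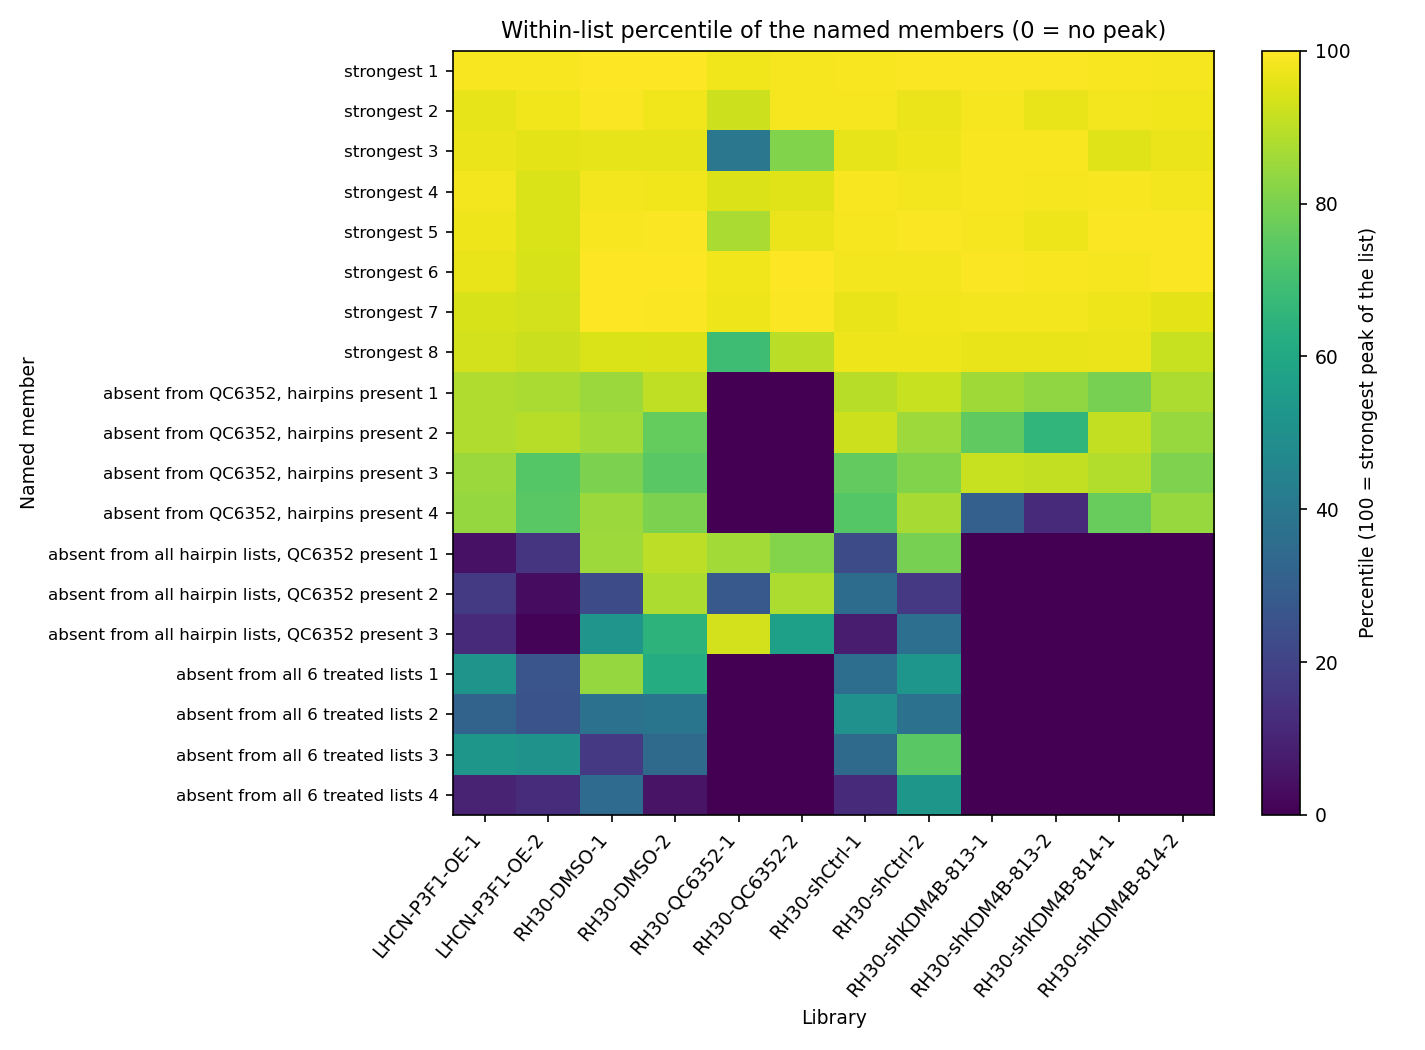
Within-list percentile (colour, 0 for no peak to 100 for the strongest peak) of the named members in the P3F1-OE and RH30 libraries; rows are members by outcome in the order of the text and columns are libraries. The 8 strongest members stand at 87.5 or more in all 12 lists, except for the third (39.7 and 80.9) and the eighth (69.1 in 1 list) with QC6352.

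Members lay closer to each other than the remaining fusion-gained regions lay to members. The median distance to the next member was 147 kb from a member and 426 kb from another fusion-gained region, and 31.3% of members against 12.9% had a member within 50 kb. Joined at 50 kb, the members formed 1800 singles, 246 runs of 2 and 82 runs of 3 or more. QC6352 loss was found at 20.2% of singles, 15.2% of members in runs of 2 and 10.4% of members in longer runs. The median of the lowest RH30 control percentile was 55.8, 64.0 and 62.8 in the same order. Singles were thus both weaker and more often lost, and the part of strength in this difference was not tested.

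The longest run held 13 members at chr2:16029767-16212713. All 13 had a peak in both QC6352 lists and 12 had one in all 6 treated lists. The median over the 13 of their mean percentile was 48.3 with P3F1-OE, 93.3 with DMSO, 84.8 with QC6352, 84.3 with shCtrl and 83.9 with shKDM4B-813. The run thus ranked higher within the RH30 lists than within the P3F1-OE lists. Lists of the 2 lines differ in length, so this step shows no change by itself. A run of 8 members followed at chr2:16378093-16408903, with 70.5 for P3F1-OE, 88.1 for DMSO and 89.8 for QC6352 and no member lost with QC6352. Its medians were 66.2 (shKDM4B-813) and 75.6 (shKDM4B-814) against 82.4 for shCtrl. The window of chromosome 2 from 16000001 to 17000000 had the most members of any 1 Mb window, 23 of its 55 fusion-gained regions, with none lost with QC6352 and 21 open in all 6 treated lists.

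Other dense stretches went different ways. The run of 11 at chr11:78756982-78885980 lost 2 members with QC6352, and its median percentile was 50.5 with P3F1-OE, 53.8 with DMSO and 41.4 with QC6352. The run of 6 at chr9:92206157-92293317 lost 3, and its median percentile went from 56.8 with DMSO to 16.3 with QC6352. It was lower with the hairpins too, at 38.0 (shKDM4B-813) and 47.8 (shKDM4B-814) against 69.7 for shCtrl. At chr16:49576257-49708886 none of 8 members was lost, yet the median percentile went from 71.1 with DMSO to 41.3 with QC6352. At chr17:21153259-21315989 all 8 members stayed in all 6 treated lists, with a median of 12.9 with P3F1-OE, 70.8 with DMSO and 76.3 with QC6352. The hairpins stood at 68.1 (shKDM4B-813) and 70.8 (shKDM4B-814) against 92.8 for shCtrl. These 8 were thus among the weaker gains in LHCN. A run of 7 members at chr1:228079246-228130443 was also weak in LHCN, at 13.9 with P3F1-OE. Unlike the run on chromosome 17, it stood lower with QC6352 (74.7) than with DMSO (91.0). Of its members, 6 had a peak in all 6 treated lists. Repeats and DNA copy number were not examined in any of these stretches.

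The other windows with the most members were chromosome 11 from 78000001 to 79000000 (14 members, 3 lost with QC6352), chromosome 1 from 228000001 to 229000000 (12, none lost), chromosome 9 from 92000001 to 93000000 (12, 4 lost) and chromosome 14 from 105000001 to 106000000 (11, none lost). In all, 1312 windows held a member and 94 held 5 or more, of 2867 with an LHCN region.

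Chromosomes differed in how many of their fusion-gained regions were members, from 6.34% to 32.1%. The share was highest on chromosomes 21 (32.1%), 22 (31.7%) and 17 (30.2%) and was 6.55% on chromosome 3. On chromosomes 17 and 22, 34.6% and 30.2% of all LHCN regions were open in the RH30 controls, against 11.8% on chromosome 3. On chromosome 21 the share of all LHCN regions was 21.2%. With QC6352, 18 of the 44 members on chromosome 18 were lost (40.9%), against 10.6% of all control-open regions there, and 11 of the 124 on chromosome 17 (8.87%), against 2.21%. Among the autosomes these were the highest and lowest shares of lost members.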

How the data were processed

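Per the submitters' processing notes, build hg19 was used with MACS2 2.1.1, SAMtools 1.3.1, Picard 1.65 and BWA 0.7.12-r1039. The sources used here give no settings and do not say whether reads were shifted for Tn5. The authors deposited 1 peak list for each library, not for pooled replicates. Each deposited list gives a score (not used), a fold ratio over background, −log10 p and −log10 q per peak. The ratio and −log10 q are the authors' values and only rank or describe peaks within a list. Intervals cover counting error only.

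Lists were trimmed by −log10 q, then fold, then position, to 170390 peaks in LHCN and 93488 in RH30. LHCN peaks overlapping by 1 bp were merged. Coordinates are hg19 and count from 1. Libraries were grouped by their titles. Per-library shares and medians were compared by exact permutation over libraries with Benjamini-Hochberg adjustment over 8 tests (Python 3.11.15, numpy 2.4.6, pandas 2.3.3, SciPy 1.17.1, matplotlib 3.10.9). The code was tested on simulated presence data.

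Named were the 8 strongest members by lowest percentile over the 6 lists that had to hold a peak, up to 4 per outcome, and the 5 windows of 1 Mb with the most members. The runs, and the chromosomes singled out, were chosen after their values were seen. Members, rule and tests were chosen with earlier results of these data known. Alternatives were the lists as deposited, −log10 q of 10 or more, the 50000 strongest peaks, 50% coverage, each control pair alone, another comparison class, stronger regions, leaving out each library and the replicate block. Added after seeing the data were a summit inside the region, no peaks over 5000 bp, widths of 250 to 500 bp and a class gap at percentile 50 or more. Sequence, motif, gene list and marker analyses were planned and not run, since no hg19 genome or annotation was used here; the labelled cell types were therefore not checked against markers.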

Additional observations from a re-analysis of the deposited data

Results flagged for a closer look

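The share of fusion-gained regions with a peak differed from its controls in opposite directions with QC6352 and with the KDM4B hairpins. Chosen by the shCtrl lists, they had a peak less often in both QC6352 libraries than in both DMSO libraries, by −22.8 percentage points. Chosen by the DMSO lists, they had a peak more often in all 4 hairpin libraries than in both shCtrl libraries, by 12.6 points. The hairpin difference had the same sign in LHCN-shared regions, which went from 75.6% with shCtrl to 87.1% and 87.0% with the hairpins. The sets of regions and the controls differ, and the difference between these 2 effects was not tested.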

How the results depend on the processing

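The lower share of fusion-gained regions with QC6352 kept its direction under every alternative run, from −30.3 points (−log10 q of 10 or more) to −16.5 (lists as deposited), and from −26.7 to −17.7 with 1 library left out. The difference in the class gap for QC6352 ran from −33.7 against RH30 regions with no LHCN peak, of which the weaker ones had more peaks with QC6352, to −13.5 on the lists as deposited, and from −20.6 to −12.3 with 1 library left out. None of these designs allows a p below 0.05. The strength difference for QC6352 ran from −38.1 (−log10 q of 10 or more) to −16.1 (lists as deposited, libraries overlapping). For the hairpins it was −0.996 on the lists as deposited and 16.6 at −log10 q of 10 or more. Their share differences ran from 6.44 to 19.6 for shKDM4B-813, 8.71 to 16.2 for shKDM4B-814 and 7.57 to 17.9 for both, and the class gap was −4.02 for widths of 250 to 500 bp and −2.13 to 2.07 with 1 library left out, lowest without P3F1-OE replicate 2. The causes were not tested.

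Counts of members moved with the choice of lists. On the lists as deposited, 65 were lost with shKDM4B-813 and 85 with shKDM4B-814. At −log10 q of 10 or more, 45 were lost with shKDM4B-813, 7 with both hairpins, and 983 were kept in all lists. With the 50000 strongest peaks the losses were 65, 14 and 5 for shKDM4B-813, shKDM4B-814 and both. Chosen by DMSO alone, the members numbered 4183, with 1084 lost with QC6352, 480 with shKDM4B-813, 321 with shKDM4B-814 and 176 with both hairpins. Chosen by shCtrl alone, the hairpin losses were 268, 154 and 94. With the summit inside the region, 18 were lost with shKDM4B-814 and 6 with both hairpins. With 1 library left out, losses ran from 524 to 804 with QC6352 (highest without QC6352 replicate 2), 136 to 235 with shKDM4B-813, 47 to 121 with shKDM4B-814 and 17 to 37 with both hairpins, members from 2729 to 3423 and kept members from 1574 to 1957.

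In the 4 pairs of RH30 groups checked, same-numbered replicates did not deviate together (correlations −0.0587 to 0.0239). With 2 libraries per group this cannot show whether same-numbered libraries were made or processed together. Pairing was not checked in LHCN. The replicate block gave the same differences, −22.8 for QC6352 and 12.6 for both hairpins, each with an exact sign-flip p of 0.5.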
